A study of Mus musculus with 67 samples.

Results

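Markers and regulators of the trophectoderm, the outer epithelium of the mouse blastocyst, were followed through preimplantation development in light-exposed and control embryos. The members were the rows of the deposited table with the symbols Cdx2, Eomes, Gata3, Gata2, Tead4, Tfap2c, Elf5, Krt8, Krt18 and Gcm1, and all 10 were found among its 26414 genes. The study asked how visible light during in vitro culture affects the embryo. Its C57BL/6 embryos came from in vitro fertilization with oocytes of females 6 weeks old and sperm of males 10 weeks old. Embryos of the light group had been exposed as 2-cell embryos to 5000 lx over 6 h and then returned to the dark, and control embryos stayed at 0 lx. RNA was sequenced by SMART-seq2, which amplifies full-length cDNA from polyA RNA, in 33 control and 34 light libraries of 5 stages. Control and light libraries, in this order, numbered 7 and 6 for 2-cell, 6 and 8 for 4-cell, 4 and 8 for 8-cell embryos, 13 and 6 for morulae and 3 and 6 for blastocysts. The paper describes single cells taken from dissociated embryos, whereas the labels number an embryo for each library. Neither source says which cell of a morula or blastocyst was taken, or whether libraries share an embryo. In the blastocyst, the position of the cells sampled and the treatment therefore cannot be told apart, and p-values are too small where libraries share an embryo. Nor can fewer cells of a type and less RNA per cell be told apart where more than 1 cell was sampled.

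The trophectoderm arises from the outer, polarised cells of the morula and later forms the placenta, while the inner cells form the inner cell mass. In outer cells Hippo signalling is low, so that YAP1 and WWTR1 enter the nucleus and act with the DNA-binding protein TEAD4. TEAD4 switches on Cdx2 and Gata3, and the AP-2 factor TFAP2C works beside it. Eomes and Elf5 maintain trophoblast stem cells, Gata2 acts in trophoblast giant cells, and Gcm1 drives differentiation of the placental labyrinth. Krt8 and Krt18 encode the paired keratins of simple epithelia, whose filaments are a hallmark of trophectoderm.

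Values are given as RPM, reads per 1000000 reads outside CT010467.1 and Gm42418. This pair of genes overlaps ribosomal RNA and held between 54.0% and 89.3% of each library. The remaining depth was 318176 to 2867032 reads per library, so that 1 read was worth 0.349 to 3.14 RPM. A level below about 3 reads in a library therefore cannot be told from none. At the 4-cell stage, control library 3 stood apart. Its median correlation with the light libraries was 0.842, against 0.788 with the other control libraries, the largest gap of any library toward the other group of its stage. The counts of members called at that stage are given with and without it. Of the other control libraries, 3 at the 4-cell stage and 11 of 13 morulae also had a higher median correlation with the light libraries than with their own group, by at most 0.0060 and 0.0329. Among blastocysts, control library 1 lay farthest from the light libraries, with a median correlation of 0.700. All test results below are log2 differences of value + 1, light minus control or later minus earlier stage, with a standard error (SE) and an adjusted p from limma. A gene was called where the adjusted p was under 0.05 and the fold change at least 2. A member with no value above 1 RPM in at least 3 of the libraries compared was not tested.

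Over development the members followed different patterns. Tead4 and Tfap2c were present from the 2-cell or 4-cell stage on. Cdx2, Gata3, Krt8 and Krt18 were read in most morulae and were highest in blastocysts. Gata2 and Elf5 had under 3 reads in every morula and reached their highest levels in blastocysts. Eomes was highest there too, with morula medians of 1.08 RPM in control and 4.24 in light. The median of Gcm1 was highest at the 4-cell stage, where only light libraries were above 20 RPM. The plot of all members by stage shows these patterns with every library as a point.

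**Figure D1:**
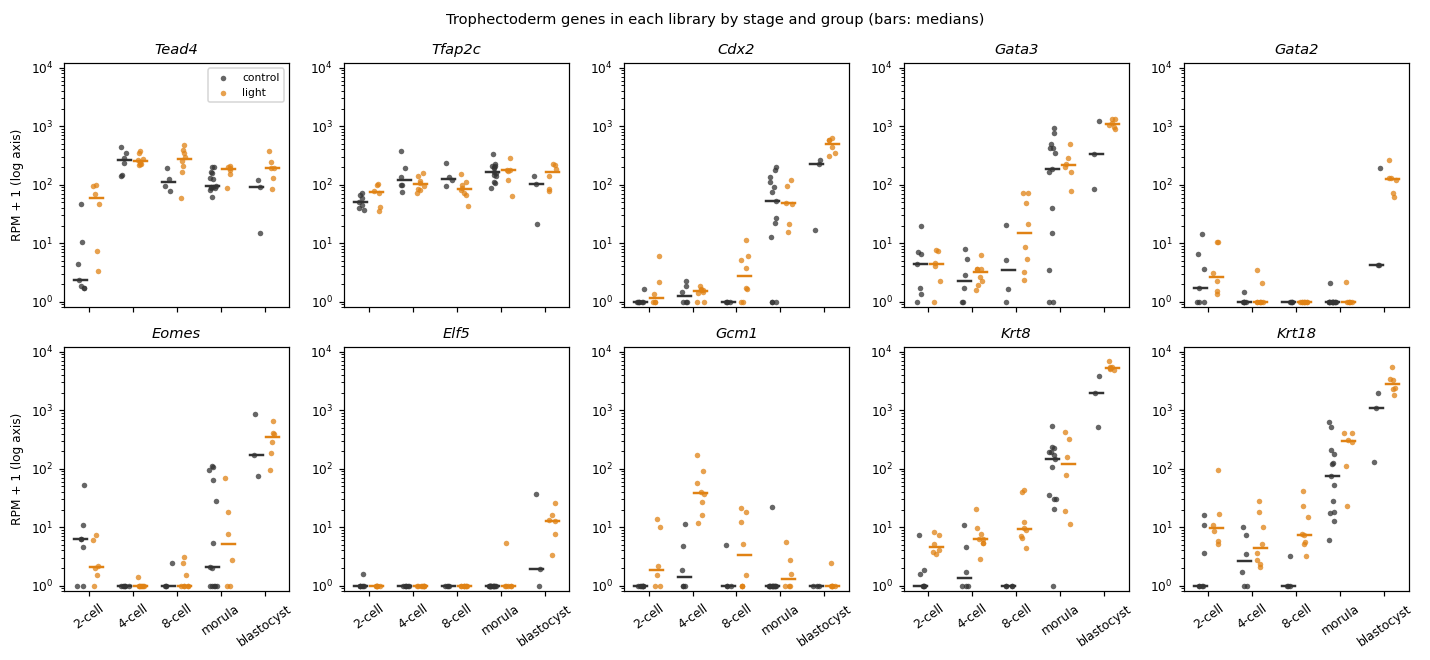
Each panel shows 1 gene, with the 5 stages on the x axis and RPM + 1 on a logarithmic y axis; black points are control libraries, orange points light libraries and bars medians. Krt8 and Krt18 stand at 1853 RPM or more in light blastocysts, Gata2 is at or near 0 from the 4-cell stage to the morula, and Gcm1 stands at 10.7 to 172 RPM in light 4-cell libraries.

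Tead4 (chr6:128224288-128300823, minus strand) rose between the 2-cell and the 4-cell stage in both groups. Coordinates here and below are those of GENCODE M21 on GRCm38, matched by symbol, and all 10 members are annotated as protein-coding. In control libraries Tead4 had a median of 1.38 RPM at the 2-cell stage (0.706 to 46.0) and 258 at the 4-cell stage (141 to 432), and the ranges did not overlap. The log2 difference was 5.82 (SE 0.70, adjusted p = 8.85e-07). In the light group the same step was 3.15 (SE 0.54, adjusted p = 3.90e-05), from a median of 57.2 to 251 RPM. From then on Tead4 stayed at this order of magnitude, with medians of 111 and 277 in control and light 8-cell libraries, 94.4 and 182 in morulae, and 92.0 and 192 in blastocysts. No later step was called for it in either group. A processed pseudogene, Gm21893, lies across Tead4 and could take or give reads.

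Tfap2c (chr2:172549593-172558622, plus strand) was the most even member. Its group medians lay between 48.6 RPM in control 2-cell libraries and 176 in light morulae, and no library was without reads of it. It rose at 1 step, from the control 2-cell to the control 4-cell stage, by 1.43 (SE 0.41, adjusted p = 0.00709), where the ranges of 36.3 to 72.4 and 72.7 to 374 RPM did not overlap. Ranges without overlap were found for 21.9% of all genes at this step. Its lowest value from the 4-cell stage on was in control blastocyst 2, at 20.0 RPM.

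Of the 7 members tested between the control 2-cell and 4-cell stages, Tead4 and Tfap2c rose and Eomes fell, with 47.9% of all genes called at this step. Without control 4-cell library 3, an alternative added after the data were seen, the same 3 were called of 6 tested, with 46.4% of all genes called. In the light group Tead4 and Gcm1 rose and Eomes and Gata2 fell, 4 of 8 tested, with 35.1% of all genes called. Eomes is known as a T-box gene of early trophoblast, yet it was also read in 2-cell libraries, at 0 to 52.5 RPM in control (median 5.29) and 0 to 6.28 in light (median 1.11). It was at 0 in all 6 control 4-cell libraries, at least 33.3-fold lower than at the 2-cell stage when 3 reads over the group are taken as the limit (0.329 RPM). Control library 9 carried much of this bound, which was 12.3-fold without it, and Eomes was still called then (-1.83, SE 0.60, adjusted p = 0.0172), also an alternative added after the data were seen.

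Between the 4-cell and the 8-cell stage no member was called in control libraries among 5 tested, with 1.86% of all genes called. By unadjusted p 1 member was under 0.05, and edgeR and DESeq2 on the recovered reads called 0. Without control 4-cell library 3, limma called 0 of 4 tested, again with 1 unadjusted p under 0.05, and 2.19% of all genes were called. In the light group 1 of 7 was called, Gcm1, which fell by 3.43 (SE 0.73, adjusted p = 0.00863), with 2.39% of all genes called.

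The step from the 8-cell stage to the morula brought in the lineage factors and the keratins. In control libraries 3 of 7 members tested rose, Cdx2, Krt8 and Krt18, with 6.22% of all genes called higher and 15.2% called in either direction. In the light group 4 of 8 rose, these and Gata3, with 5.20% of all genes called higher and 10.6% in either direction. Cdx2 (chr5:147300805-147307270, minus strand), a homeobox gene needed to keep trophectoderm identity, was at 0 in the 4 control 8-cell libraries and at 0 to 199 RPM in control morulae (median 51.6). Against 3 reads over the 8-cell group, or 0.751 RPM, the morula mean of 68.8 was at least 91.6-fold higher, with an adjusted p of 0.0156. Without control 8-cell library 4, the deepest of the group, the bound was 57.6-fold. In light libraries Cdx2 was 0 to 10.3 RPM at the 8-cell stage (median 1.74) and 14.3 to 119.9 in morulae (median 46.8), ranges that did not overlap, as for 3.68% of all genes. The log2 difference was 4.02 (SE 0.74, adjusted p = 0.000595).

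Gata3 (chr2:9857078-9890034, minus strand), which acts in parallel with Cdx2 below TEAD4, was at 0, 0.674, 4.23 and 19.8 RPM in control 8-cell libraries and at 0 to 919.9 in control morulae (median 181). This difference of 4.29 (SE 1.55) had an adjusted p of 0.0607 and was not called. In the light group the ranges of 1.37 to 71.2 and 78.2 to 487 RPM did not overlap, and Gata3 rose by 3.85 (SE 0.68, adjusted p = 0.000407). The annotation places the antisense gene Gm13256 and 2 protein-coding genes across Gata3. The library type does not keep strand, so reads of these neighbours cannot be told from Gata3.

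Krt8 (chr15:101996698-102004482, minus strand) was at 0 in the 4 control 8-cell libraries and at 0 to 527 RPM in control morulae (median 148), a mean at least 195-fold above the limit of 3 reads (123-fold without control 8-cell library 4). Krt18 (chr15:102028180-102032027, plus strand), its filament partner and neighbour on the chromosome, was at 0, 0, 0 and 2.20 RPM in control 8-cell libraries and at 5.16 to 628 in morulae (median 72.8). Its log2 difference of 5.64 (SE 0.97) had an adjusted p of 0.000214. In the light group, which had reads of both keratins in every 8-cell library, Krt8 rose by 2.84 (SE 0.72, adjusted p = 0.00967) and Krt18 by 4.26 (SE 0.63, adjusted p = 5.81e-05). A processed copy, Krt8-ps, could share reads with Krt8, and the noncoding gene Gm36026 lies across it on the other strand.

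Promoters are shown for the 3 members that were called higher at this step in both groups. The sequences are RefSeq promoter windows on GRCm38.p6, written 5′ to 3′ on the strand of the gene and printed only upstream of the annotated exons. The windows are chr15:102004483-102004592 on the minus strand for Krt8, chr15:102027966-102028179 on the plus strand for Krt18 and chr5:147307271-147307499 on the minus strand for Cdx2. Capitals mark an AGATAA match, the core bound by GATA factors, in Krt8 and a GCCNNNGGC match, the palindrome bound by AP-2 factors, in Krt18.
Krt8: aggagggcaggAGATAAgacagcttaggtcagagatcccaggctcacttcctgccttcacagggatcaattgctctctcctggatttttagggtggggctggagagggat
Krt18: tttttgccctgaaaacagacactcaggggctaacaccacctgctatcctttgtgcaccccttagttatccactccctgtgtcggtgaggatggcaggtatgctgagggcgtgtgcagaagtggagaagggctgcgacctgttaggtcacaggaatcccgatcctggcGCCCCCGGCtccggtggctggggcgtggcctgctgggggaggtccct
Cdx2: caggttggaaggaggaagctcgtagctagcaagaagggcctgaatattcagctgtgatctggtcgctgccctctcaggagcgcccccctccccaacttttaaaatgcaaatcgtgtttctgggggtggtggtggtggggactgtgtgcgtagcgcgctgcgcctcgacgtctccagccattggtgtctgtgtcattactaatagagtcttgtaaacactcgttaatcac

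Promoter windows were found for 8 of the 10 members, 10 windows in all; Tead4 and Tfap2c had none. On both strands, GGAATG, the core bound by TEAD factors, was in 2 of the 10 windows (Elf5 and Gata2) and in 14.7% of all 32851 windows. AGATAA was in 1 (Krt8) against 11.2%, and GCCNNNGGC in 4 (Gata3, Cdx2, Gata2 and Krt18) against 16.6%. TATAAA, searched on the strand of the gene, was in 1 (Krt8) against 8.32%. No match of 1 motif overlapped a match of another. These matches describe letters in a short window and show no binding.

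From the morula to the blastocyst 7 of 10 members rose in the light group and 3 of 8 tested in the control group. Among all genes tested, 7.94% were called higher at this step in light and 7.77% in control, and 13.3% and 13.2% in either direction. In light libraries Krt8 rose from 10.5 to 423 RPM (median 118) to 4885 to 7077 (median 5357), a log2 difference of 6.02 (SE 0.57, adjusted p = 4.24e-08). Krt18 rose by 3.99 (SE 0.47, adjusted p = 1.18e-06), Cdx2 by 3.34 (SE 0.41, adjusted p = 2.19e-06) and Gata3 by 2.41 (SE 0.32, adjusted p = 4.96e-06). Morula and blastocyst ranges did not overlap for any of these 4, as for 6.22% of all genes.

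Gata2, Eomes and Elf5, factors of the trophoblast, were also called higher at this step in the light group. Gata2 (chr6:88193891-88207032, plus strand) had at most 1 read in any morula of either group. It reached 60.7 to 262 RPM in light blastocysts (median 124), a rise of 6.66 (SE 0.69, adjusted p = 1.78e-07). Eomes (chr9:118478212-118486132, plus strand) went from 0 to 67.7 RPM (median 4.24) to 92.8 to 663 (median 343), a rise of 5.71 (SE 0.76, adjusted p = 6.11e-06). The antisense gene Gm33460 lies across Eomes, and its reads cannot be told apart. Elf5 (chr2:103411688-103450989, plus strand), the ETS factor of trophoblast stem cells, was at 0 in 5 of 6 light morulae and at 2.40 to 24.8 RPM in blastocysts (median 11.9), a rise of 3.06 (SE 0.78, adjusted p = 0.00827). Tead4, Tfap2c and Gcm1 were not called, with log2 differences of 0.17, -0.09 and -0.55.

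In control libraries Gata2 (3.84, SE 0.75, adjusted p = 0.00101), Eomes (5.09, SE 1.57, adjusted p = 0.0330) and Krt8 (4.43, SE 1.18, adjusted p = 0.0131) rose from the morula to the blastocyst. With 3 blastocysts these results leaned on single libraries, while no library was left out of the light step. Without control blastocyst 1, 2 or 3 in turn, the adjusted p of Eomes was 0.0561 to 0.220, and that of Krt8 passed 0.05 without library 2 or 3 (up to 0.105). Gata2 was called each time, with log2 differences of 2.00 to 4.77, the lowest without library 3. Krt18 had a log2 difference of 3.29 with an adjusted p of 0.0503, and was called without library 1. Tfap2c and Tead4 had differences below 0, -1.31 and -1.03, and were not called, but Tfap2c was called lower without library 3 (-1.83, adjusted p = 0.0381). The change from morula to blastocyst was compared between the groups by an interaction term, and 0 of 10 members were called, with 1.50% of all genes called. Gata2 had the largest difference of the 10, 2.82 (SE 1.08, adjusted p = 0.200). It was the 1 member with an unadjusted p under 0.05, and edgeR and DESeq2 called 0.

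Within light blastocysts the level per length, in RPM per kilobase of exon, ordered the members. Krt8 had a median of 2736 (2495 to 3615) and Krt18 of 1987 (1289 to 3745), ranges that overlapped. Gata3 followed at 276 (220.4 to 331) and Cdx2 at 221 (136 to 273), which overlapped each other but not the keratins. Eomes at 82.5 (22.3 to 159.6), Tead4 at 53.3, Tfap2c at 44.3 and Gata2 at 23.0 overlapped with their neighbours in this order. Elf5 came next at 2.03 (0.408 to 4.22), and Gcm1 had reads in 1 of 6 libraries.

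**Figure D2:**
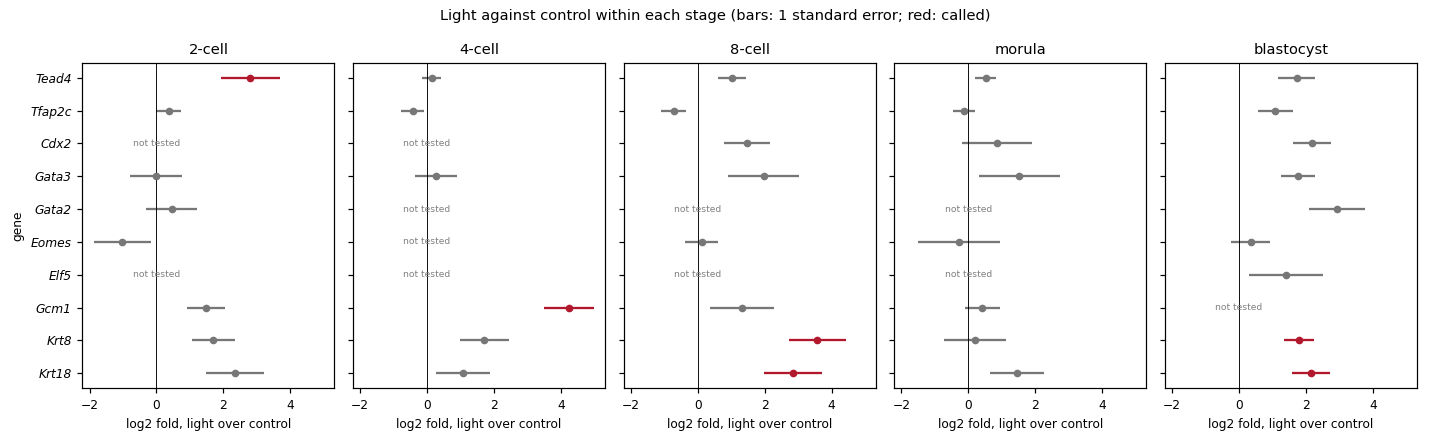
Each panel shows 1 stage, with the log2 difference of light over control on the x axis and the 10 genes on the y axis; bars are 1 standard error to each side and red points are called. Calls are few (Tead4 at the 2-cell stage, Gcm1 at the 4-cell stage, Krt8 and Krt18 at the 8-cell and blastocyst stages), and in blastocysts all 9 tested members lie above 0.

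The plot of log2 differences by stage gives every member tested between light and control. At the 2-cell stage 1 of 8 members tested was called, Tead4, against 12.0% of all genes. Its level was 0.706, 0.734, 0.837, 1.38, 3.46, 9.46 and 46.0 RPM in control libraries, and in light libraries it was 2.40 to 97.0 (median 57.2). Light 9, 12 and 14 lay above every control library, at 69.2, 97.0 and 94.9, while light 10, 15 and 16 lay within the control range, whose highest value was that of control 17. The difference of 2.80 (SE 0.87) had an adjusted p of 0.0310. The call was lost when control library 8, 10, 12 or 24 or light library 9, 10, 12 or 14 was left out, with adjusted p up to 0.0941.

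The keratins and Gcm1 were also read more widely in light 2-cell libraries without passing the threshold. Krt8 had reads in 6 of 6 light libraries (2.46 to 7.21 RPM) and 3 of 7 control libraries (0.576 to 6.35), with an adjusted p of 0.0768. Krt18 had reads in 6 of 6 and 3 of 7, with a log2 difference of 2.35 (SE 0.87, adjusted p = 0.0688). Gcm1 was at 0 in all 7 control libraries and had reads in 4 of 6 light libraries, up to 12.6 RPM, a mean at least 14.8-fold above 3 reads over the control group (8.29-fold without light library 12; adjusted p = 0.0884). Genes of other lists were called at this stage too, where 12.0% of all genes were called. The summed level of 5 oocyte and polar body genes was 1699.8 to 4093 RPM in control and 477 to 1512 in light, with Bmp15 and Oosp1 lower (log2 differences of -2.13 and -1.56). Of 4 cumulus cell genes found, 3 were tested and 2 were higher in light, Tnfaip6 by 2.43 and Amhr2 by 1.36, with sums of 20.5 to 74.9 in control and 53.0 to 169 in light. Of 11 inner cell mass genes tested 2 were higher, Spic (2.27) and Klf2 (2.53). Ascl2 was lower (-3.64), the 1 called of 13 further trophectoderm genes tested. Dab2 was lower too (-1.29), the 1 called of 11 primitive endoderm genes tested. No sperm gene of 4 was high enough to be tested, with sums of up to 8.65 in control and 2.40 in light. The part of these lists in the level of Tead4 was not tested.

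At the 4-cell stage Gcm1 (chr9:78051924-78065624, plus strand) was the 1 of 6 members tested that was called, with 2.15% of all genes called. Control libraries had 0, 0, 0, 0.841, 3.73 and 10.4 RPM, the last being library 3. Light libraries had 10.7, 15.0, 26.4, 36.5, 39.8, 55.6, 90.1 and 172. The groups did not overlap, as was the case for 0.819% of all genes tested. The log2 difference was 4.23 (SE 0.75, adjusted p = 0.00707), and without control library 3 it was 4.71 (adjusted p = 0.000500), again the 1 member called of 6 tested, with 930 of 14832 genes (6.27%) called. Leaving out any 1 of the 14 libraries kept the call (adjusted p up to 0.0204). By the 8-cell stage Gcm1 was at 0 to 20.5 RPM in the light group and at 0, 0, 0 and 4.05 in control, with an adjusted p of 0.418. In morulae and blastocysts at most 1 library, control morula 21 at 21.4 RPM, passed 5. Of the other members at the 4-cell stage, Krt8 had reads in 8 of 8 light libraries and 3 of 6 control libraries (1.71, SE 0.73, adjusted p = 0.202), and Tead4 and Tfap2c differed by 0.14 and -0.43. Without control library 3 these differences were 1.94, 0.13 and -0.43.

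At the 8-cell stage 2 of 8 members tested were called, both keratins, with 4.83% of all genes called higher in light and 8.49% in either direction. Krt8 was at 0 in the 4 control libraries and at 3.48, 5.64, 6.13, 8.05, 8.71, 11.4, 38.4 and 42.4 RPM in light. The groups did not overlap, as was so for 5.61% of all genes. The light mean of 15.5 was at least 20.7-fold above 3 reads over the control group (13.0-fold without control library 4), with an adjusted p of 0.00945. The control libraries held 453578 to 1482728 reads and the light libraries 652583 to 2235894, so that a level near the lowest light value would have given few reads in the shallowest control library. Krt18 was at 0, 0, 0 and 2.20 RPM in control and at 2.18 to 39.8 in light (median 6.47), a difference of 2.84 (SE 0.87, adjusted p = 0.0418). Its call was lost without control library 1, 2 or 4 or light library 5, 6, 7, 9 or 10, with adjusted p up to 0.101. Cdx2 was at 0 in control and had reads in 6 of 8 light libraries, a mean of 2.94 RPM that was at least 3.91-fold above 3 reads over the group (2.46-fold without control library 4; adjusted p = 0.193). Tead4 was higher in light by 1.03 (SE 0.42, adjusted p = 0.126) and Tfap2c lower by 0.72 (SE 0.37, adjusted p = 0.240), neither of which was called. The median log2 difference of the 8 members was 1.40, against 0.08 over all genes tested. With the members at 0 in control set to their bound it was 1.64, but no bounds were set over all genes. Krt8 and Cdx2, at 0 in control, passed the filter through light libraries alone.

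Genes of other lists were also higher in light at this stage, with 4.83% of all genes called higher and 8.49% in either direction. Among 18 further trophectoderm genes 11 were tested and 4 were higher. They include Ddah1, at 1.06 ± 1.22 RPM in control (SD, n = 4) and 61.3 ± 37.9 in light (SD, n = 8), and Hand1, a basic helix-loop-helix gene of trophoblast giant cells, at 9.38 ± 10.8 and 84.1 ± 44.7. Of 11 Hippo genes and TEAD cofactors tested, 5 were higher, among them Amotl2 by 3.63 and Lats2 by 3.59 on the log2 scale. Of these 11, edgeR and DESeq2 each called 2. AMOTL2 belongs to the angiomotin family and LATS2 is a kinase, both of which hold YAP1 out of the nucleus. Of 10 primitive endoderm genes tested 3 were higher, Dab2 (5.08), Lrp2 (4.19) and Gata6 (3.97), and of 10 inner cell mass genes 1, Pou5f1 (1.97). Of the inner cell mass genes edgeR called 2 and DESeq2 4. Both tools called 4 of the further trophectoderm genes and 3 of the primitive endoderm genes. Of 5 oocyte and polar body genes Bmp15 was lower (-2.08), while edgeR called 0 of the 5 and DESeq2 1. Genes of several lineages thus differed at this stage, and their part in the keratin values was not tested.

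In morulae 0 of 8 members tested were called, against 1.59% of all genes. None had an unadjusted p under 0.05, and edgeR and DESeq2 called 0. The widest differences were those of Gata3 (1.53, SE 1.20, adjusted p = 0.527) and Krt18 (1.46, SE 0.80, adjusted p = 0.343). The control morulae differed widely among themselves. Cdx2 was at 0 in control morulae 2, 10 and 20 and at 11.6 to 199 RPM in the other 10. Gata3 was at 0 in control morulae 10 and 20, at 2.46 in morula 26 and at 14.2 to 919.9 in the rest. At a cutoff of 10 RPM, chosen after the values were seen, 9 of 13 control morulae passed for both Cdx2 and Gata3, 1 for Cdx2 alone, 1 for Gata3 alone and 2 for neither. All 6 light morulae passed for both. Krt8 and Krt18 were not absent where Cdx2 was. Control morula 10 had 236 RPM of Krt8 and 126 of Krt18, and control morula 2 had 209 of Krt18. Eomes was at 27.3 to 109.9 RPM in 5 control morulae, all of which passed for Cdx2 and Gata3, and at 0 to 4.31 in the other 8.

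**Figure D3:**
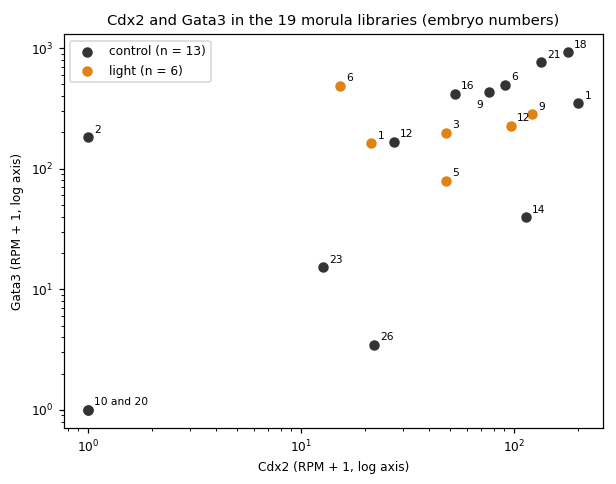
Cdx2 is on the x axis and Gata3 on the y axis, both as RPM + 1 on logarithmic axes; each point is a morula library with its embryo number, control in black and light in orange. The 6 light morulae lie together at 14.3 to 119.9 RPM of Cdx2, while control morulae 2, 10 and 20 lie at 0 of Cdx2 and 10 and 20 also at 0 of Gata3.

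In blastocysts the 2 keratins were called of 9 members tested, against 1.03% of all genes called higher in light and 1.90% in either direction. Krt8 was at 523, 1994 and 3869 RPM in control blastocysts 1, 2 and 3, and at 4885, 5154, 5313, 5401, 5437 and 7077 in light. The difference was 1.79 (SE 0.44, adjusted p = 0.0378), with no overlap between the groups, as for 7.21% of all genes tested. Krt18 was at 129, 1106 and 1959.8 in control and at 1853 to 5382 in light (median 2855), a difference of 2.15 (SE 0.56, adjusted p = 0.0475). Control 3 overlapped the lowest light library, number 29. Cdx2 was at 16.1, 224 and 267 in control and 309 to 617 in light (median 501), also without overlap, and its adjusted p of 0.0546 missed the threshold.

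Both keratin calls were fragile. Without any 1 of the 6 light libraries both were lost, with adjusted p of 0.0616 to 0.0906. Without control blastocyst 1 the differences were 0.99 for Krt8 and 0.98 for Krt18, with adjusted p of 0.383 and 0.403, and 0 members were called. Without control blastocyst 2, Krt18 and Cdx2 were called. Without control blastocyst 3, 5 members were called, Gata2 (4.76, adjusted p = 2.28e-05), Krt18 (2.94, adjusted p = 0.00162), Cdx2 (2.89, adjusted p = 0.00381), Gata3 (2.72, adjusted p = 0.000218) and Krt8 (2.43, adjusted p = 0.00129). By edgeR and DESeq2 on the recovered reads 0 members were called. Calls over all genes moved as well, from 268 in the main test to 55 without control blastocyst 1. Over all alternatives they ranged from these 55 to 716, on the deposited values. The median difference over the 9 members was 1.77, against -0.04 over all genes. On the deposited scale the median of all genes moved to -0.64 and the difference of Krt8 to 1.02. With all 9 libraries and the scale used here the 9 members had differences above 0, but Eomes turned to -0.44 without control blastocyst 1, to -0.42 on the deposited scale and to -0.25 and -0.28 by edgeR and DESeq2, and Elf5 to -0.12 and -0.17 by these tools.

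**Figure D4:**
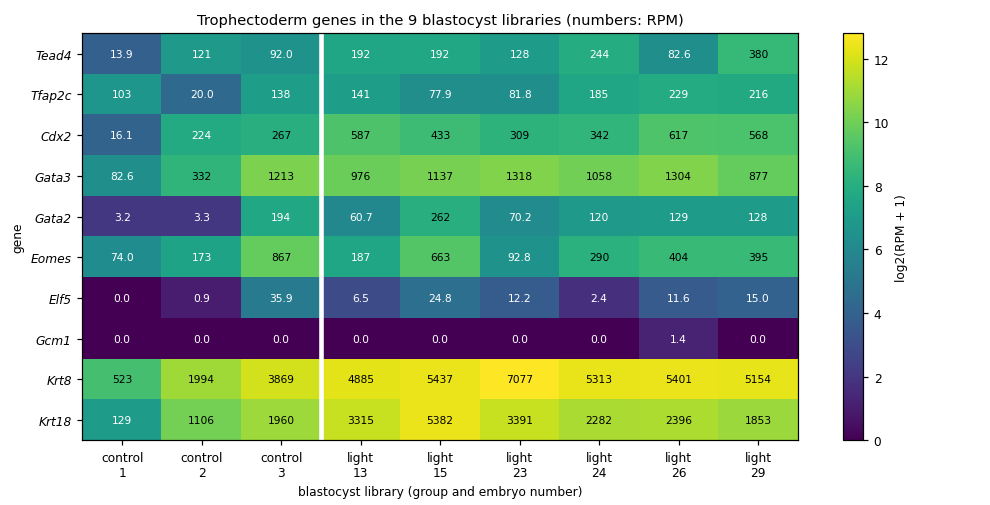
Rows are the 10 genes and columns the 9 blastocyst libraries, control left of the white line; colour is log2 of RPM + 1 and the printed numbers are RPM. Control 1 is darkest for most genes, and control 3 resembles the light libraries, with 867 RPM of Eomes and 194 of Gata2.

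The 3 control blastocysts were unlike each other, as the colour map of the 9 libraries shows. The sum of the 10 members was 945, 3974 and 8636 RPM in control 1, 2 and 3, and 9586 to 13608 in light. Control 1 lay below the light range for 8 members and control 2 for 7. Control 3 lay within it for 6 members, below it for Cdx2 and Krt8, and above it for Eomes (867 against at most 663) and Elf5 (35.9 against at most 24.8). Gata2 separated them most sharply, at 3.22, 3.26 and 194 RPM in control 1, 2 and 3. Tead4 was at 13.9, 121 and 92.0, and Tfap2c at 103, 20.0 and 138, so that control 1 and 2 were each low for a different upstream factor. Gata3 was at 82.6, 332 and 1213, against 877 to 1318 in light. The 6 light libraries kept within 1.50-fold of each other for Gata3 and within 1.45-fold for Krt8, while Eomes spanned 7.15-fold and Elf5 10.3-fold among them. The lowest Elf5 value, 2.40 RPM, rested on fewer than 3 reads, so the span of Elf5 is not well measured.

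The inner cell mass genes ran the other way over the 3 control libraries. Their 12 genes summed to 4540, 2232 and 494 RPM in control 1, 2 and 3 and to 559 to 927 in light. Control 3 was thus below every light library for this sum, as it was for the sum of the trophectoderm genes. Nanog, a pluripotency homeobox gene, was the 1 of the 12 that limma called, with 0.865% of all genes called lower. Its level was 509.5, 404 and 89.4 in control and 1.45 to 46.2 in light, with a log2 difference of -3.98 (SE 0.76, adjusted p = 0.0103). Of the 12, 8 had an unadjusted p under 0.05, edgeR called 5 and DESeq2 called 6. Tdgf1, the co-receptor of Nodal, was at 1315, 419.6 and 7.01 against 4.80 to 29.0 in light, and Sox2 at 37.5, 17.3 and 0.876 against 0 to 4.72. Pou5f1 was not low in the light libraries, at 247 to 513 RPM against 1041, 535 and 271 in control, and Zfp42 was at 160.4 to 368 against 219, 204 and 64.8. Tdgf1, Sox2, Pou5f1 and Zfp42 here, Gata4, Sox17, Foxa2, Lrp2 and Lamb1 of the primitive endoderm list in blastocysts, and Gata6 at the 8-cell stage were named after their values were seen. The plot of both sums shows control 1 and 2 with high inner cell mass and low trophectoderm sums, and control 3 beside the light libraries.

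**Figure D5:**
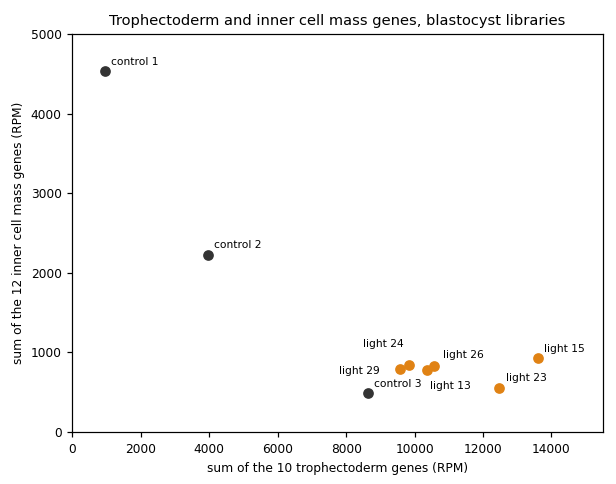
The x axis is the sum of the 10 trophectoderm genes and the y axis the sum of the 12 inner cell mass genes, both in RPM; each point is a blastocyst library, control in black and light in orange. Control 1 lies at 945 and 4540, control 2 at 3974 and 2232, and control 3 at 8636 and 494, next to the 6 light libraries.

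Primitive endoderm genes were mixed. Of 12 tested 3 were lower in light, Cubn (-4.24), Lama1 (-4.17) and Lamb1 (-3.92), and 1 was higher, Dab2 (2.27), against 0.865% of all genes called lower and 1.03% called higher. Dab2 and Lrp2 encode endocytic proteins that trophectoderm also makes, and Lrp2 alone gave 802 to 3389 RPM in light and 384, 1471 and 1128 in control. The defining factor Gata4 was at 144 in control 1 and at most 7.89 in the other 8 libraries, Sox17 was at 52.6 in control 1, at 11.2 in light 13 and at most 0.644 elsewhere, and Foxa2 was at 0 in all 9. The list summed to 1859.9 to 3041 in control and 1805 to 4220 in light. Cumulus genes summed to at most 16.1 RPM in control and 20.6 in light, and sperm genes to 0 and at most 2.36. The inner cell mass sum was thus highest in the control libraries in which the trophectoderm sum was lowest, and the part of these genes in the result was not tested. Without control 1 the keratin differences were under 1 on the log2 scale. Without control 2, whose inner cell mass sum was 2232 RPM, Krt18 and Cdx2 were called and Krt8 was not. Leaving out 1 of 3 control libraries cannot link these changes to any 1 trait of a library.

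Of the 18 further trophectoderm genes 16 were tested in blastocysts and 1 was higher in light, Krt7, a further simple-epithelium keratin, at 36.3 ± 31.9 RPM in control (SD, n = 3) and 192 ± 47.5 in light (SD, n = 6), where 1.03% of all genes were called higher. The list summed to 1014, 3209 and 6493 in control 1, 2 and 3 and to 3269 to 5435 in light, so that control 3 was above every light library. From the morula to the blastocyst 7 of 15 further genes tested rose in control and 12 of 16 in light, against 7.77% and 7.94% of all genes, led in both by Dppa1 (7.15 and 7.84) and Id2 (6.27 and 6.41). Of the 11 Hippo genes and cofactors 0 were called between light and control blastocysts by limma, 6 had an unadjusted p under 0.05, edgeR called 0 and DESeq2 1. Their sum was 987 to 1164 in control and 816 to 1343 in light.

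Over all 67 libraries the genes whose pattern was most like 3 of the members were found among 9459 genes with a mean of at least 10 RPM, as Pearson's r of log2(value + 1). This likeness is given as a description, and the part of stage in it was not tested. Rab17, a small GTPase of epithelial traffic, was most like Cdx2 (0.920), ahead of Gata3 (0.883) and Serpinb9b (0.870). Cdx2 was most like Gata3, ahead of Lrp2 (0.852) and Rab17 (0.849). Krt18 was most like Krt8 (0.896), ahead of Akr1b8 (0.878) and Enpep (0.862). Tead4 and Tfap2c, present before the others, were far less like Cdx2 (0.248 and 0.341).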

How the data were processed

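Per the labels, polyA RNA of 67 libraries was amplified by SMART-seq2, and the submitters' processing notes name HISAT2, HTSeq 0.9.1 and mm9. The authors deposited 1 table of signal values for 26414 genes, which are reads over a size factor per library, although their methods speak of RPKM. Whole reads were recovered (within 0.01 reads) for no less than 99.97% of the values in any library, and 11 genes held a value that was not whole. These size factors depend on few genes, so the reads were divided by the sum of all genes but CT010467.1 and Gm42418, a pair also left out of the tests. The design foresaw normalized values, and its test was kept.

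Comparisons were light against control at each stage, adjacent stages within each group, and the step from morula to blastocyst between the groups, 14 in all, by limma 3.58.1 (trend) in R 4.3.3 on log2(RPM + 1). Genes above 1 RPM in at least 3 of the libraries compared were tested, with Benjamini-Hochberg adjustment over all of them. A call needed an adjusted p under 0.05 and a 2-fold change. Each library was 1 replicate and no covariate was given by the labels. Libraries of a group differed beyond counting error (chi-square per degree of freedom of at least 6.64). Limits and intervals from counts cover counting error only. The test was tried on simulated data with 100 genes changed 4-fold and 100 changed 16-fold. It recovered 7% and 84% of them in the comparison of light with control blastocysts, over 13862 genes. The changed genes were drawn only from genes with a higher mean than that of Elf5. Every gene was given the same fixed spread, not the spread seen in these libraries. The shares recovered therefore need not hold for a given member.

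The members and the marker lists were chosen with earlier results of these data known. Named genes are the members, from each list up to 2 genes with the largest rise and 2 with the largest fall among those called, and the 3 genes most like Cdx2, Gata3 and Krt8, predicted genes left out, and the further genes that the text names as exceptions were chosen after their values were seen. Alternatives were other scales, pseudocounts and filters, edgeR 4.0.16, DESeq2 1.42.0, each library left out, and the embryo number as a block. Sums over a list, bounds and figures were computed in Python 3.11.15 (numpy 2.4.6, pandas 2.3.3, matplotlib 3.10.9). The files give no coordinates, and those printed come from GENCODE M21 (GRCm38), a later build than the one in the notes.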

Additional observations from a re-analysis of the deposited data

Results flagged for a closer look

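Dixon's test on the log2 scale was applied to 58 groups of 4 to 10 libraries. Each had at least 3 reads of a member in its highest library. In 4 groups a value stood far from the rest. The test flags about 1 of 20 groups of normal values, a rate that need not hold where several libraries are at 0. Tead4 was low in light morula 12, at 86.7 RPM against 151 to 207 in the other 5. Krt8 was high in control 2-cell library 8, at 6.35 RPM from 18 reads against at most 0.837, and in light blastocyst 23, at 7077 against 4885 to 5437. Gcm1 was at 4.05 RPM, from 6 reads, in control 8-cell library 4 and at 0 in the other 3. With these tied at 0, any value of at least 3 reads would have been flagged.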

How the results depend on the processing

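Counts are of members called. Between light and control blastocysts 0 were called on the deposited values, with median ratio scaling, with a pseudocount of 0.1 or 10, without a filter, by edgeR or by DESeq2, and 1 (Krt8) with a mean above 5 RPM. Leaving out 1 library gave 0 to 5 there, 0 to 2 at the 2-cell stage, 1 to 3 at the 8-cell stage, 1 to 3 in the control step from morula to blastocyst and 0 to 1 for the interaction (Gata2, without control blastocyst 3). At the 2-cell stage 0 were called without a filter and 2 (Gcm1 and Tead4) by edgeR, and at the 8-cell stage 0 with a pseudocount of 10 and 1 (Krt8) without a filter or by edgeR. Of the steps between stages, control 4-cell to 8-cell gave 1 (Tead4) on the deposited values, control 8-cell to morula 5 by DESeq2, control morula to blastocyst 1 with a pseudocount of 0.1, light 2-cell to 4-cell 2 with a pseudocount of 10, a mean above 5 RPM or DESeq2, and light 4-cell to 8-cell 2 by edgeR or DESeq2. The difference of Eomes between light and control blastocysts turned to -0.42 on the deposited values, -0.25 by edgeR, -0.28 by DESeq2 and -0.44 without control blastocyst 1 (up to 1.32 without another library), and that of Elf5 to -0.12 by edgeR and -0.17 by DESeq2. The causes were not tested. Among alternatives that keep every library, 94 further counts stayed within 1.5-fold and 266 values of single members kept their direction and their side of the threshold, while 48 kept the direction but lost the call.

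Over all genes, the deposited scale moved the median difference in blastocysts from -0.04 to -0.64 and the calls from 146 higher and 122 lower to 51 and 665. It moved the splits of higher and lower calls likewise from 137 and 120 to 54 and 124 in morulae, from 172 and 82 to 153 and 693 in control 4-cell to 8-cell, and for the interaction from 88 and 183 to 20 and 245. In the light steps they moved from 1878 and 4182 to 1282 and 5011, from 131 and 244 to 93 and 1516, from 808 and 839 to 667 and 1041 and from 1197 and 805 to 684 and 2164, in order of stage. Calls between light and control over all genes, 2164, 323, 1250, 257 and 268 in order of stage, had ranges over the alternatives of 1146 to 2735, 0 to 930, 896 to 1448, 0 to 409 and 55 to 716. The 930 were without control 4-cell library 3 and the 55 without control blastocyst 1.

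Whether embryo numbers shared between groups pair the libraries could not be settled. The deviations of same-numbered libraries had correlations of -0.067 to 0.062. At the 2-cell, 4-cell and morula stages, 3 of 6, 4 of 6 and 0 of 8 libraries correlated best with their own number. So few shared numbers cannot exclude pairing. With the number as a replicate block, 0 members were called between light and control at the 4-cell stage and in every step between stages that could be fitted and had calls. Those steps were control 8-cell to morula and morula to blastocyst, and light 2-cell to 4-cell, 4-cell to 8-cell and 8-cell to morula. Over all genes, the block called 0 at the 4-cell stage, in control 8-cell to morula and morula to blastocyst, and in light 2-cell to 4-cell. It called 6 of 15678 genes in light 4-cell to 8-cell and 84 of 15542 in light 8-cell to morula. A count of 0 members there therefore says little about the members. At the 2-cell stage Tead4 remained called, with 1146 of 18090 genes called. No block was fitted for light against control in 8-cell embryos or blastocysts, for control 2-cell to 4-cell, for light morula to blastocyst or for the interaction.

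Depth limits the low members: with 1 read worth up to 3.14 RPM, Elf5, early Cdx2 and early Gata2 rest on few reads. With 3 control blastocysts and 4 control 8-cell libraries, single libraries decide several calls.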
